A study of Mus musculus with 6 samples.

Results

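The genes described here encode complement components and regulators, chosen by name: C3, C4b, Cfi, Cfb, Serping1, Masp1, Cd55 and Cd59a. Every probe set whose platform annotation gave exactly 1 of these symbols was taken, which found 13 of 45037 probe sets and 6 of the 8 genes. Masp1 had 5 probe sets, Cd55 had 3, Cd59a had 2, and Cfb, Cfi and Serping1 had 1 each. C3 had no probe set under its symbol in the annotation used here and was not analysed. C4b appeared only on a probe set shared with C4a.

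Expression was measured on 6 Affymetrix mouse arrays, which read each transcript with sets of short probes. The study set 3 pools of epithelium against 3 pools of mesenchyme from the whole small intestine of E18.5 embryos of C57BL/6 females, with no mutation or treatment named in the labels. Both tissues had been parted by 9 hours at 4 °C in Cell Recovery Solution, and each pool, lettered A, B or C, joined the tissue of 3 embryos. Of 6 pools made per tissue, those with little or no RNA of the other tissue in an RT-PCR test were hybridised.

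Complement is a cascade of plasma and tissue proteins that marks and lyses microbes and clears debris. The classical and lectin pathways start from recognition molecules and their proteases, the alternative pathway amplifies the reaction on surfaces, and all converge on cleavage of C3 and on a terminal pore. Inhibitors in the fluid and on the membranes of host cells restrain each step. The liver makes most plasma complement, and epithelia, fibroblasts, endothelium and macrophages make parts of it locally.

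Values are on the log2 scale, with array medians of 8.1 to 8.6 in the epithelium and 8.5 to 8.7 in the mesenchyme. The number of arrays limits the precision, and no detection calls were used. As a guide to background, the mean of 15 bacterial control probe sets lay between 5.91 and 6.24 on each array. Across probe sets, r was 0.978 to 0.984 within a tissue and 0.773 to 0.813 between tissues. Mesenchyme B stood apart in its 18 spike-in controls, whose mean was 9.80 there and between 10.56 and 10.77 elsewhere. The tissues matched their labels by marker genes: 8 of 8 enterocyte markers were higher in the epithelium, and 6 of 6 markers each of smooth muscle, fibroblasts and endothelium were higher in the mesenchyme, although Vil1, Vim and Actg2 among them had been used to choose the pools. Other lists were less uniform. Of 6 mesothelial markers, 4 were higher in the mesenchyme and 1 (Krt19) in the epithelium. Of 4 measured markers of enteric nerve and glia, 2 were higher in the mesenchyme. Below, a difference is epithelium minus mesenchyme in log2 units, given with limma's standard error. A probe set counts as changed when its difference is at least 2-fold and its adjusted p (Benjamini-Hochberg over all probe sets) is under 0.05.

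The 6 measured genes split between the tissues. Cfb and Cfi were higher in the epithelium, Serping1 and Cd59a were higher in the mesenchyme, Cd55 had probe sets in both directions, and Masp1 had 1 of 5 probe sets higher in the mesenchyme. In total 8 of the 13 probe sets changed, with epithelial excess in 3 and mesenchymal excess in 5. Over all probe sets, 21.5% changed, of which the epithelial side made up 5.98% of those tested and the mesenchymal side 15.5%. The arrays of the tissues also did not overlap for 8 of the 13, against 41.7% of all probe sets and 46.5% of all genes. Without mesenchyme B the count was also 8.

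**Figure D1:**
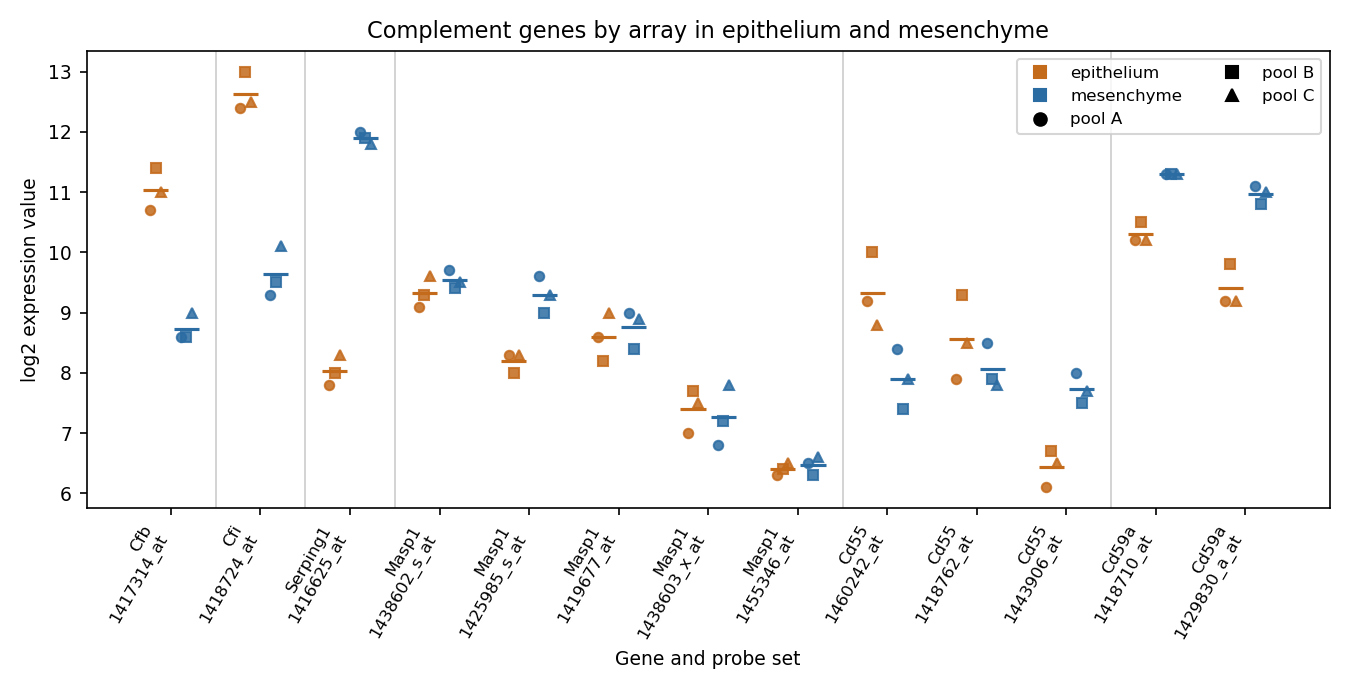
Log2 expression values (vertical axis) of the 13 probe sets of 6 complement genes (horizontal axis) in 3 epithelial arrays (orange, left) and 3 mesenchymal arrays (blue, right), with pools A, B and C as circles, squares and triangles and group means as lines. Cfb and Cfi lie higher in the epithelium, Serping1 and Cd59a higher in the mesenchyme, and the 3 Cd55 probe sets do not share a direction.

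Cfb encodes factor B, the protease-bearing subunit of the alternative pathway convertase. Its probe set 1417314_at was at 10.7, 11.4 and 11.0 in epithelium A, B and C, against 8.6, 8.6 and 9.0 in mesenchyme A, B and C. The lowest epithelial array lay above the highest mesenchymal array. Cfb was thus higher in the epithelium by 2.30 ± 0.24 (4.92-fold, limma adjusted p = 2.65e-10, 3 arrays per tissue). In the reference annotation Cfb neighbours C2, which encodes the corresponding convertase subunit of the classical and lectin pathways, with no protein-coding gene between them.

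C2 moved the same way as its neighbour in all of its 3 probe sets. The probe set 1416051_at averaged 10.93 ± 0.25 in the epithelium and 8.77 ± 0.12 in the mesenchyme (SD, n = 3 each), a difference of 2.17. The other probe sets of C2 differed by 2.00 (1457664_x_at) and 1.5 (1441912_x_at, the brightest), and all 3 changed.

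C4, which pairs with C2 in that convertase, could be read only through the probe set shared by C4a and C4b. That probe set, 1418021_at, was at 9.4, 10.0 and 9.6 in the epithelium, against 10.1, 10.1 and 10.0 in the mesenchyme. The values overlapped to within their rounding, since epithelium B and mesenchyme C were both at 10.0. The difference of -0.40 did not pass (95% interval -0.87 to 0.07, limma adjusted p = 0.184), and it cannot be assigned to either gene.

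Cfi encodes factor I, the plasma protease that inactivates the activated forms of C3 and C4 together with cofactors. Its probe set 1418724_at was at 12.4, 13.0 and 12.5 in the epithelium, against 9.3, 9.5 and 10.1 in the mesenchyme. The difference of 3.00 ± 0.24 was the larger of the 2 epithelial ones among the soluble proteins (8-fold, limma adjusted p = 6.82e-13). Mesenchyme C held the highest mesenchymal value for both Cfi and Cfb.

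Mesenchyme C also held the most signal of enterocyte markers. Cfi reached 9.92%, 11.4% and 17.3% of its mean epithelial level in mesenchyme A, B and C on the linear scale, and Cfb reached 24.4% in mesenchyme C and stood lower, at equal values, in A and B. The median over 8 enterocyte markers was 3.98%, 2.83% and 5.44% in the same arrays, and the summed level of that list was 16.94 to 17.18 in the epithelium and 12.77 to 14.06 in the mesenchyme on the log2 scale. That median stands for an uneven list, whose differences ran from 3.00 (Fabp1) and 3.27 (Fabp2) to 5.63 (Cdh1). Cfi, with 3.00, thus differed as much as Fabp1. In mesenchyme A, B and C, Fabp1 was at 11.4, 11.2 and 12.9, against an epithelial mean of 14.83. The part of carried-over epithelial RNA in the mesenchymal values of Cfi and Cfb was not tested. In tissue samples, fewer cells of a type and less RNA per cell cannot be told apart.

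**Figure D2:**
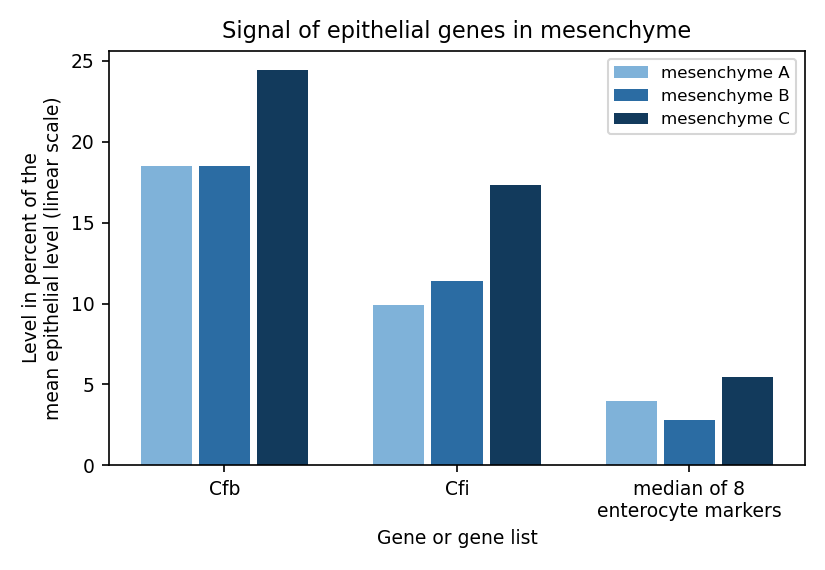
Level in mesenchyme A, B and C in percent of the mean epithelial level (vertical axis, linear scale) for Cfb, Cfi and the median of 8 enterocyte markers (horizontal axis), drawn as bars. Cfb reaches 24.4%, Cfi stands at 9.92% to 17.3% and the marker median at 2.83% to 5.44%, and mesenchyme C is highest in each. Single markers differ from the median, and the log2 difference of Fabp1 (3.00) equals that of Cfi.

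Because the liver is the main source of plasma complement, hepatocyte markers are given beside these genes. Of 8 such markers, 4 were higher in the epithelium (Ttr, Afp, Serpina1b and Fga) while the mesenchyme had no higher one, and the list's summed level was 14.29 to 14.63 in the epithelium and 11.45 to 12.11 in the mesenchyme. Ttr differed by 2.27, Afp by 5.07, Serpina1b by 3.5 and Fga by 3.17. Alb, which encodes albumin, was at 8.8, 8.7 and 9.1 in the epithelium, against 8.6, 8.5 and 9.3 in the mesenchyme. Its values overlapped and did not pass (difference 0.07 ± 0.24, limma adjusted p = 0.846 over genes). Ahsg (0), Apoh (0.23) and Hpx (-0.47) did not pass either. A part of liver RNA in the values of Cfb and Cfi was not tested.

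Serping1 encodes the C1 inhibitor, a serpin that inactivates the proteases of the classical and lectin pathways. Its probe set 1416625_at was at 7.8, 8.0 and 8.3 in the epithelium, against 12.0, 11.9 and 11.8 in the mesenchyme. The mesenchymal arrays lay within 0.2 of each other. The difference of -3.87 ± 0.23 was the largest among the 13 probe sets in either direction (14.6-fold, limma adjusted p = 9.05e-17).

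In epithelium A, B and C, Serping1 stood at 5.83%, 6.70% and 8.25% of its mean mesenchymal level on the linear scale. Over the same arrays the median of 6 fibroblast markers was 0.877%, 1.08% and 1.04%, that of 6 smooth muscle markers 1.15%, 1.48% and 1.12%, that of 6 endothelial markers 5.26%, 7.34% and 6.24%, and that of 6 macrophage markers 44.1%, 57.7% and 50.0%. Summed on the log2 scale, fibroblast markers stood at 10.36 to 10.67 in the epithelium and 16.39 to 16.51 in the mesenchyme, smooth muscle markers at 10.41 to 10.99 and 16.51 to 16.58, and endothelial markers at 10.50 to 10.85 and 14.28 to 14.51. The macrophage median stands for a split list, whose differences ran from -4.40 (Ptprc) and -3.20 (Mrc1) to 0.40 (Csf1r). Which of these cells carried Serping1 was not tested.

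Masp1 encodes proteases of the lectin pathway, with alternative splicing giving products that differ in their protease part. The annotation does not say which product each probe set reads. The probe set 1425985_s_at was at 8.3, 8.0 and 8.3 in the epithelium, against 9.6, 9.0 and 9.3 in the mesenchyme. These arrays did not overlap, and the difference of -1.10 ± 0.23 passed (limma adjusted p = 0.000196). It fell under 2-fold without mesenchyme A (-0.95) and kept its call in 1 of 5 other scalings of the arrays (-1.36 to -0.79).

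The other Masp1 probe sets showed no difference that passed. The brightest, 1438602_s_at, was at 9.1, 9.3 and 9.6 in the epithelium, against 9.7, 9.4 and 9.5 in the mesenchyme, a difference of -0.20 with a 95% interval of -0.67 to 0.27. The differences of 1419677_at (-0.17), 1438603_x_at (0.13) and 1455346_at (-0.07) had intervals that stayed between -0.66 and 0.65. A 2-fold difference in the measured value lay outside each interval. Signs of these small differences turned with the scaling of the arrays. The probe set 1455346_at, at 6.3 to 6.5 in the epithelium and 6.3 to 6.6 in the mesenchyme, lay close to the bacterial controls. Dim as well was 1438603_x_at, with means of 7.4 in the epithelium and 7.27 in the mesenchyme. For such dim probe sets a narrow interval cannot exclude a 2-fold difference of the transcript.

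**Figure D3:**
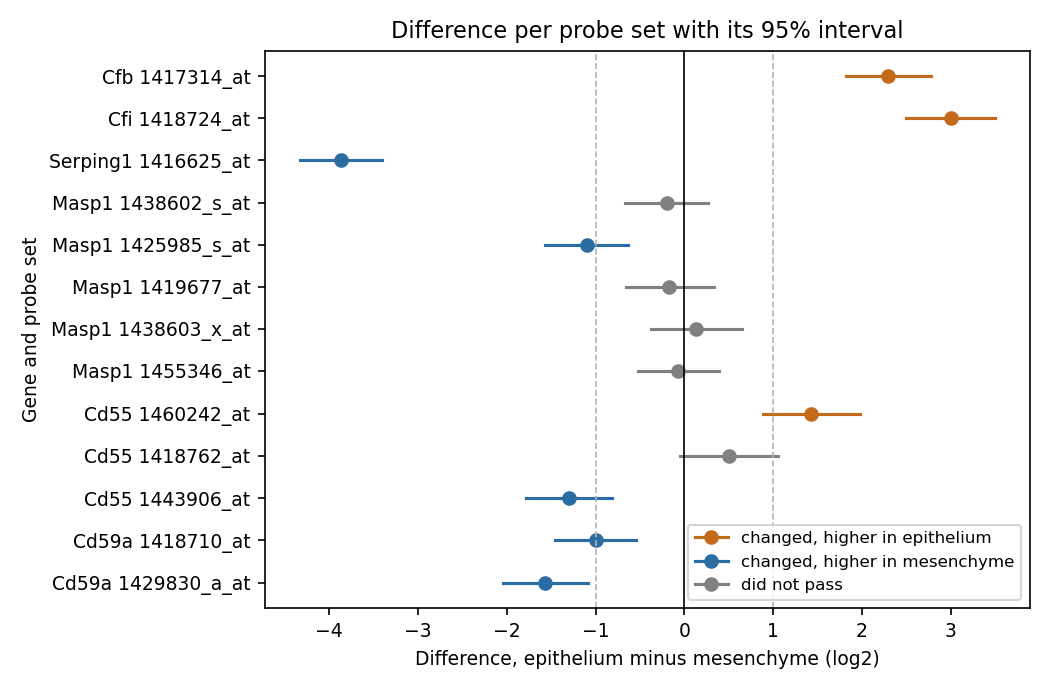
Difference between epithelium and mesenchyme in log2 units (horizontal axis) for each of 13 probe sets (vertical axis), with 95% intervals from limma and dashed lines at a 2-fold difference. Cfi (3.00) and Serping1 (-3.87) mark the ends, 4 of 5 Masp1 probe sets lie near 0, and Cd55 has probe sets at 1.43 and at -1.30.

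Cd55 and Cd59a encode membrane regulators that protect host cells. CD55, or decay-accelerating factor, dissociates the convertases, and CD59 blocks assembly of the terminal pore. Both proteins are held by a lipid anchor, and both genes have a neighbouring paralog in the mouse, Cd55b and Cd59b, with no protein-coding gene between the pairs. The RefSeq promoter table (GRCm38.p6) held Cd55, its paralog Cd55b and Cd59a, with 300 bases around the annotated start. They are shown because the probe sets of Cd55 went in different directions while its paralog gave no signal above background, and because Cd59a is the other membrane regulator measured here. Capitals mark the GC box core (GGGCGG, on the other strand CCGCCC), and the sequences run 5' to 3' on the strand of the gene.
Cd55, chr1:130462695-130462994, minus strand: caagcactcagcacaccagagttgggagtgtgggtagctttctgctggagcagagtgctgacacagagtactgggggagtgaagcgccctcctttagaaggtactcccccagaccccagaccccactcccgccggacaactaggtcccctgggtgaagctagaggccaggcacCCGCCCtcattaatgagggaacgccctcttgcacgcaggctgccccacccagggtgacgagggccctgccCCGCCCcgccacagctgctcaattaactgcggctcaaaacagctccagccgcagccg
Cd55b, chr1:130422994-130423293, minus strand: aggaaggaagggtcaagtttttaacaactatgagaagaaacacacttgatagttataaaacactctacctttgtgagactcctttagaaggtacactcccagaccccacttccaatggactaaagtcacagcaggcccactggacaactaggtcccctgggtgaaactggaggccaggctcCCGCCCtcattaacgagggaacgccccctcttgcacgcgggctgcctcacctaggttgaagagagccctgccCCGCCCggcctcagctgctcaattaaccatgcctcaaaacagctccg
Cd59a, chr2:104095551-104095850, plus strand: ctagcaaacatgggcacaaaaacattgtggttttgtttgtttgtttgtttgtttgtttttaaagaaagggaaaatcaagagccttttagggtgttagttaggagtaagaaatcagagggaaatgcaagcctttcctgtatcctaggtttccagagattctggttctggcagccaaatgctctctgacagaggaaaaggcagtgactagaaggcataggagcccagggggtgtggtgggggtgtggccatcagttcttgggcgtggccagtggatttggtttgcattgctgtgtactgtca

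The promoters of Cd55 and Cd55b had 65.9% identical positions in a global alignment, against 46.6% for Cd55 and Cd59a. Each of the Cd55 pair held 2 GC box cores, and Cd59a held none. At least 1 such core, on either strand, was found in 35.7% of all 32851 promoters of the table. The letters TATAAA (or TTTATA on the other strand) occurred in Cd55b only, as in 13.6% of all promoters, and CCAAT (or ATTGG) likewise in Cd55b only, as in 37.4%. The GC content was 63.3% in Cd55, 53.3% in Cd55b and 45.7% in Cd59a, beside a median of 52.7% over all promoters. A match is a description of letters and not of a bound site.

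Cd55 had 1 probe set higher in the epithelium. The probe set 1460242_at was at 9.2, 10.0 and 8.8 in the epithelium, against 8.4, 7.4 and 7.9 in the mesenchyme. Every epithelial array lay above every mesenchymal one, with the widest spread between pools among the changed probe sets (SD 0.61 and 0.50). The difference was 1.43 ± 0.27 (2.70-fold, limma adjusted p = 3.92e-05).

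A second Cd55 probe set annotated to the same mRNA record, 1418762_at, did not pass. It was at 7.9, 9.3 and 8.5 in the epithelium, against 8.5, 7.9 and 7.8 in the mesenchyme, so that the tissues overlapped. The difference was 0.50 ± 0.27 (95% interval -0.05 to 1.05, limma adjusted p = 0.154). Epithelium B was the highest array in both probe sets.

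The third Cd55 probe set, 1443906_at, rests on a different sequence record and went the other way. It was at 6.1, 6.7 and 6.5 in the epithelium, against 8.0, 7.5 and 7.7 in the mesenchyme, with no overlap. These epithelial values lay close to the bacterial controls, so the size of the difference is uncertain. The difference of -1.30 ± 0.24 passed (limma adjusted p = 2.18e-05). The calls of 1460242_at and 1443906_at held in all 5 other scalings, each with its own sign. Averaged over its 3 probe sets, Cd55 differed by 0.21 and did not pass (limma adjusted p = 0.466 over genes), so these arrays give Cd55 no single direction.

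The paralog Cd55b lay below the mean of the bacterial controls in both tissues. Its own probe set 1419727_at was at 5.2, 5.2 and 5.4 in the epithelium, against 5.1, 5.6 and 5.3 in the mesenchyme. The probe set shared by Cd55 and Cd55b, 1427632_x_at, was at 5.2, 5.4 and 5.5 in the epithelium, against 5.1, 5.6 and 5.4 in the mesenchyme. Neither showed a difference.

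Cd59a was higher in the mesenchyme in both of its probe sets. The probe set 1429830_a_at was at 9.2, 9.8 and 9.2 in the epithelium, against 11.1, 10.8 and 11.0 in the mesenchyme, a difference of -1.57 ± 0.23 (2.96-fold, limma adjusted p = 8.28e-07). The brighter one, 1418710_at, was at 10.2, 10.5 and 10.2 in the epithelium, against 11.3 in each mesenchymal array. Its difference of -1 ± 0.23 lay on the 2-fold limit (limma adjusted p = 0.000432). That call ended without epithelium A or epithelium C (-0.95 in each case) and held in 1 of 5 other scalings (-1.26 to -0.70), while the tissues did not overlap in the deposited values.

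The remaining complement genes were taken from a list of 50 by role, of which 41 had a probe set. Epithelial levels exceeded mesenchymal ones for 4 of them (C2, C8g, Cpn1 and Csmd1), the reverse held for 10, and 27 did not pass. After quantile normalization or with equal medians, 8 were higher in the epithelium and 9 in the mesenchyme, so the balance between the tissues depends on the scaling of the arrays. Over all 18161 genes, each read by its brightest probe set, 24.1% changed, 8.19% towards the epithelium and 15.9% towards the mesenchyme. The median difference was -0.13 over the 41 genes and -0.17 over all genes.

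Recognition molecules and the first proteases held 7 of the 10 mesenchymal genes. Of 13 measured initiation genes, 7 were higher in the mesenchyme, beside 15.9% of all genes. No epithelial excess passed, and the median difference of the 13 was -1.93. The C1q chains C1qa, C1qb and C1qc, which form the recognition molecule of the classical pathway and lie side by side in the genome, differed by -3.53 ± 0.23, -4.80 ± 0.23 and -4.13 ± 0.23. The adjusted p-values over genes were 1.44e-15, 4.12e-19 and 1.28e-17 in limma. C1qb was at 6.9, 7.6 and 7.5 in the epithelium, against 12.2, 12.1 and 12.1 in the mesenchyme, and its probe set 1434366_x_at differed by -4.03. The remaining one, 1437726_x_at, was at 5.1 to 5.5 in the epithelium, which is below the bacterial controls, so its fitted difference of -6.80 has no exact size.

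C1ra and C1s1, the proteases bound to C1q and targets of the C1 inhibitor, were also higher in the mesenchyme. C1s1 was at 6.8, 7.1 and 6.4 in the epithelium, against 9.9, 9.7 and 9.9 in the mesenchyme (difference -3.07 ± 0.23). Its value in epithelium C came close to the bacterial controls (6.06 on that array), so the size of the difference is uncertain. C1ra differed by -1.93 ± 0.23. Of the lectin pathway proteases, which the C1 inhibitor also acts on, Masp2 did not pass (0.17 ± 0.23), and Masp1 passed in 1 of its 5 probe sets.

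A pair of collectins lay above the bacterial controls in the mesenchyme and below them in the epithelium. Colec10, a secreted collectin of the lectin pathway, was at 5.8, 5.8 and 5.5 in the epithelium, against 11.8, 11.4 and 11.8 in the mesenchyme, a difference of -5.97 ± 0.23 (limma adjusted p = 7.00e-22 over genes). Colec12, a membrane collectin that acts as a scavenger receptor, differed by -5.03 ± 0.23. With such epithelial values these fitted differences have no exact size and are not ranked. Mbl1, Mbl2, Fcna, Fcnb and Colec11, with differences of -0.33 to 0.70, stayed under 2-fold.

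**Figure D4:**
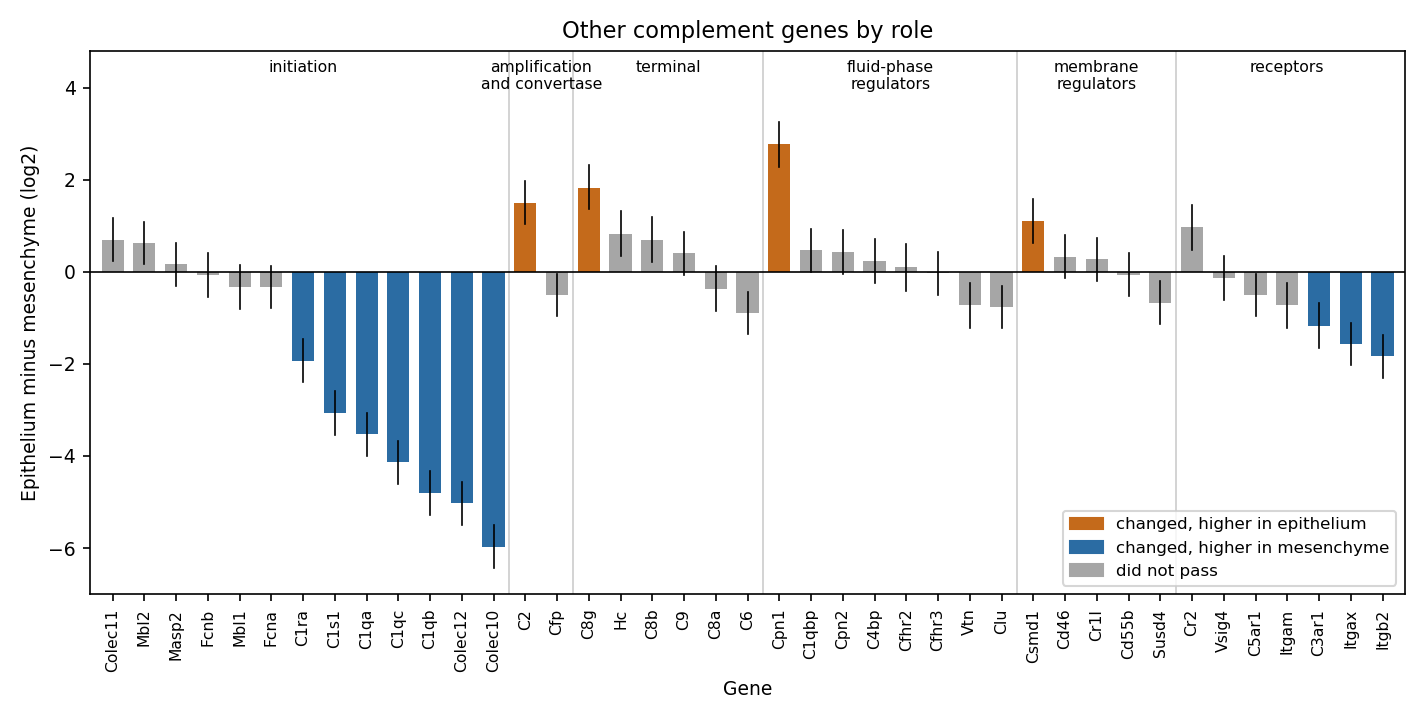
Difference between epithelium and mesenchyme in log2 units (vertical axis) for 41 other complement genes grouped by role (horizontal axis), with bars for the difference, lines for 95% intervals from limma and colours for genes that passed. The 7 changed initiation genes lie between -1.93 and -5.97, and the 4 genes higher in the epithelium between 1.10 and 2.77.

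Of 6 terminal pathway genes, 1 changed, beside 24.1% of all genes. C8g, which encodes a small chain of the C8 component, was higher in the epithelium. It was at 9.9, 10.4 and 10.3 in the epithelium, against 8.4, 8.1 and 8.6 in the mesenchyme (difference 1.83 ± 0.23). The chains C8a (-0.37) and C8b (0.70) of the same component stayed under 2-fold. Hc, the mouse gene of C5, differed by 0.83 and C6 by -0.90, both under 2-fold.

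Among the fluid-phase regulators, 1 of 8 measured genes changed, which like the terminal genes is no more than the share over all genes. Cpn1, the catalytic subunit of carboxypeptidase N, which inactivates the anaphylatoxins, was at 9.5, 10.3 and 9.6 in the epithelium, against 6.8, 7.0 and 7.3 in the mesenchyme (difference 2.77 ± 0.24, limma adjusted p = 3.7e-12 over genes). Its partner subunit Cpn2 differed by 0.43 and did not pass. Clu, which encodes clusterin, differed by -0.77 in its brightest probe set, while 2 of its 4 probe sets passed as higher in the mesenchyme (-1.13 and -1.30).

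Of 5 other membrane regulators, 1 changed, beside 24.1% of all genes. It was Csmd1, called by 1 of its 4 probe sets (1.10 ± 0.23). The call of Csmd1 ended under spike-in scaling (0.84), without epithelium B (0.92) and in the mean of its probe sets (0.17). Cr1l, the rodent regulator Crry that acts on both convertases, was at 11.1, 11.6 and 11.3 in the epithelium, against 11.3, 10.9 and 11.0 in the mesenchyme. Its arrays overlapped and the difference of 0.27 did not pass, and Cd46 (0.33) did not pass either. Susd4 differed by -0.67 in its brightest probe set, while 1424221_at passed as higher in the mesenchyme (-1.33 ± 0.24). Likewise Cfp, which encodes properdin, the stabiliser of the alternative pathway convertase, differed by -0.50 in its brightest probe set and by -1.43 ± 0.23 in 1452279_at, which passed.

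Among 7 receptors, 3 were higher in the mesenchyme, beside 15.9% of all genes, and the remaining 4 missed the threshold. The integrin subunits Itgb2 and Itgax, which form a complement receptor of leukocytes, differed by -1.83 ± 0.23 and -1.57 ± 0.23. C3ar1, the receptor of an anaphylatoxin, differed by -1.17 ± 0.24, a call that held in 1 of 5 other scalings and ended without epithelium A (-0.97). The other probe sets of C3ar1 differed by -1.23 and -2.63, the last with epithelial values (5.5 to 5.8) below the bacterial controls.

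Macrophage markers moved with these genes in part. Of 6 such markers, 3 were higher in the mesenchyme, namely Ptprc (-4.40 ± 0.23), Mrc1 (-3.20 ± 0.23) and Cd68 (-1.43 ± 0.23), and the other three did not pass. The summed level of the list was 13.58 to 13.99 in the epithelium and 13.82 to 13.95 in the mesenchyme. That sum was taken on the linear scale and is mostly Csf1r, so it says little about the other markers. Adgre1 (-0.53) and Cd14 (-0.63), which did not pass, were also lower in the epithelium. Csf1r, with the highest value of the list, was at 13.4, 13.8 and 13.5 in the epithelium, against 13.2, 13.1 and 13.2 in the mesenchyme, and did not pass. The part of macrophages in the differences of the C1q chains and receptors was not tested.

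The genes whose profile over the 6 arrays lay nearest to each measured member were found by the root mean square distance of log2 values after each gene's mean was subtracted. For Cfb this was Myo7b, a myosin of microvilli, at a distance of 0.07. For Cfi it was 0610005C13Rik (0.09), for Serping1 it was Pcolce, an enhancer of procollagen processing (0.10), and for Cd55 it was Shtn1 (0.11). Safb and Abi3 were equally near to Cd59a (0.04), and Tmem266 was nearest to Masp1, with Tdrd9 at the same rounded distance (0.05).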

How the data were processed

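The data were 6 arrays, 3 of epithelium and 3 of mesenchyme, grouped by their titles. Each probe set has a log2 value that the authors computed with RMA, as the submitters' processing notes state, deposited to the nearest 0.1 (range 4.6 to 15.2). The step between arrays is not given in the sources used here. Of 45101 probe sets, 64 controls were set aside. Gene symbols came from the platform annotation, updated by RefSeq names (59 probe sets). 932 probe sets with several symbols and 9160 without one were tested but named no gene.

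limma (version 3.58.1, R 4.3.3) was fitted by lmFit and eBayes on all 45037 probe sets, with no covariate and no further scaling, with 4 residual and 31.7 prior degrees of freedom. For genes, the brightest probe set was read from the same fit and p-values were adjusted over 18161 genes. Changed means an adjusted p under 0.05 and a log2 difference of at least 1. The fit was tested on simulated data. The p-values rest on the spread between pools chosen by RT-PCR.

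The members, lists and tests were chosen with earlier results of these data known. All members were to be named with every probe set, and of the other complement genes, per role, up to 8 changed genes with the largest absolute difference, and for each member the nearest gene by profile; genes that did not change, other probe sets of a gene and marker genes were added after their values were seen. 18 alternatives were planned and 1 was added after seeing the data. Promoters were read from the RefSeq table of GRCm38.p6 and aligned with Biopython (version 1.88). The letters A, B and C are not said to pair pools, and the fit used no pairs.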

Additional observations from a re-analysis of the deposited data

How the results depend on the processing

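The count of changed probe sets among the 13 was 8, beside 21.5% of all probe sets. It ranged from 6 to 8 over the alternatives, and from 7 to 8 when 1 array was left out. The count of changed genes among the 6 was 5, beside 24.1% of all genes. It ranged from 4 to 6 over the alternatives and from 4 to 5 with 1 array left out. The 5 include Cd55, read by its brightest probe set although its probe sets disagree, and Cd59a, which lay on the 2-fold limit. The other complement genes higher in the mesenchyme (10) ranged from 9 to 11 with 1 array left out and those higher in the epithelium (4) from 3 to 6. Those higher in the epithelium were 8 after quantile normalization, 8 with equal medians and 9 with no limit on the difference, and those higher in the mesenchyme were 9 in both of these scalings, 12 under spike-in scaling, 12 when probe sets were averaged per gene, 13 by the largest interquartile range and 15 with no limit. No limit also gave 16887 probe sets and 7490 genes in all. With 1 array left out, 9071 to 10764 probe sets and 4157 to 4764 genes were called. Cfb, Cfi, Serping1, the 2 opposed Cd55 probe sets and 1429830_a_at of Cd59a kept sign and call in every alternative run on them, apart from the dim filter, which left out 1443906_at of Cd55. The median of all genes moved by 0.27 (quantile), 0.21 (loess), 0.30 (medians), 0.24 (ribosomal) and -0.26 (spike-in), or by 0.01 with spike-in scaling and mesenchyme B left out, an alternative chosen after seeing the data, under which the call of 1418710_at of Cd59a also ended (-0.97).

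Signs turned for Masp1 probe sets that had not passed, and none passed after turning. Under quantile, loess, equal medians and ribosomal scaling, 1438602_s_at gave 0.13, 0.08, 0.10 and 0.04 (the same as Masp1 as a gene), 1419677_at gave 0.16, 0.09, 0.13 and 0.07, and 1455346_at gave 0.26, 0.11, 0.23 and 0.17. The probe set 1438603_x_at gave -0.13 under spike-in scaling and -0.08 with array weights, and -0.02 and -0.10 without epithelium B and mesenchyme A (up to 0.40 with 1 array left out). With 1 array left out, 1419677_at ranged from -0.37 to 0.03, and without mesenchyme C, 1455346_at gave 0.00. Taking the probe set with the largest interquartile range turned Cd55 to -1.30, by construction the third probe set, and Masp1 to -1.10. With the letter as a replicate block, 8 probe sets and 5 genes were called, as without it, and no call of a named gene changed. Same-letter arrays deviated together at -0.31, -0.15 and 0.12, so the letters were not taken as pairs. Depth has no counterpart on these arrays: values near or below the bacterial controls in both tissues, as for Cd55b, cannot show a difference.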
